A study of Mus musculus with 2 samples.

Results

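The genes described here encode the 3 transforming growth factor beta (TGF-beta) ligands Tgfb1, Tgfb2 and Tgfb3, the 3 receptors Tgfbr1, Tgfbr2 and Tgfbr3, and the 4 latent TGF-beta binding proteins Ltbp1, Ltbp2, Ltbp3 and Ltbp4. They were chosen by gene symbol, and all 10 were found among the 43346 mouse genes measured. The data were total RNA sequencing libraries of whole hearts from newborn mice (age 0 days, strain B6NTac;B6NCrl/Lap, pooled males and females, labelled healthy, with no engineered allele and no treatment given). The design held 1 group with 2 biological replicates from separate tissue isolates, where replicate 1 pooled 15 mice and no pool size is stated for replicate 2. Expected counts, the fragments that the authors' quantification assigned to each gene, summed over genes to 69946215 in replicate 1 and 73615802 in replicate 2. With 1 group no comparison between conditions could be tested, so the results are levels, the spread between the replicates and the use of alternative transcripts.

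TGF-beta ligands are made as precursors whose prodomain stays bound to the mature dimer and keeps it latent, and in most cells this complex is tied by disulphide bonds to a latent TGF-beta binding protein that anchors it in the extracellular matrix. Integrins, proteases or thrombospondin release the ligand, which binds the type II receptor; this kinase activates the type I receptor, and the type I receptor phosphorylates Smad2 and Smad3. In the developing mouse heart the pathway is known for its part in the valve-forming endocardial cushions, the coronary vessels, the outflow tract and the matrix made by fibroblasts.

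Levels are given as TPM, a unit that divides each count by transcript length and scales every library to the same total, and so allows genes to be compared within a library. All 10 genes were at 1 TPM or more in both replicates, a level that 24.2% of all genes and 47.1% of protein-coding genes reached in both. Their mean levels spanned 19.1-fold, from 2.07 TPM for Ltbp2 to 39.5 TPM for Ltbp4, and the median was 6.49 TPM over the 11594 genes that averaged at least 1 TPM, called expressed genes from here on. The ligands together held the least transcript, 12.16 TPM in replicate 1 and 10.79 TPM in replicate 2 (mean 11.5 ± 0.969, SD, n = 2). The receptors summed to 40.91 and 39.10 TPM (mean 40.0 ± 1.28, SD, n = 2). The latent binding proteins held the most, 64.40 and 60.14 TPM (mean 62.3 ± 3.01, SD, n = 2). The order ligands, receptors, latent binding proteins was the same in both replicates and the summed levels did not overlap. Per ligand transcript there were 3.36 and 3.62 receptor transcripts and 5.30 and 5.57 latent binding protein transcripts. These sums include transcripts not annotated as protein-coding. Over protein-coding transcripts the ligands summed to 12.16 and 9.22 TPM and the receptors to 33.35 and 33.54 TPM. The latent binding proteins then summed to 53.61 and 52.15 TPM. The order was kept, but both ratios differed more between the replicates. In RNA of a whole organ, a low level from fewer cells of a type and one from less RNA per cell cannot be told apart.

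**Figure D1:**
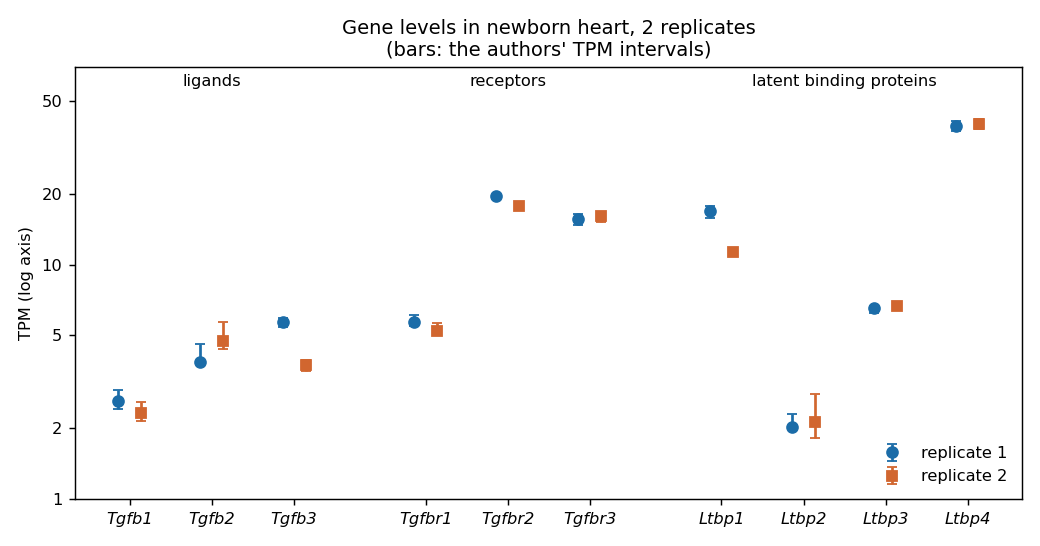
TPM of each gene (log axis) in replicate 1 (circles) and replicate 2 (squares), grouped as ligands, receptors and latent binding proteins, with the authors' deposited TPM intervals as bars. Ltbp4 lies highest at 38.99 and 39.99 TPM and Ltbp2 lowest at 2.02 and 2.12 TPM, and the replicates of Tgfb3 and Ltbp1 lie farthest apart.

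The 3 ligands are close relatives that signal through the same receptor pair. Tgfb1 (ENSMUSG00000002603.11, GRCm38 chr7:25687002-25705077, plus strand) encodes the ligand found across most tissues and was the lowest of the 3, at 2.61 TPM in replicate 1 and 2.32 TPM in replicate 2, from 520 and 485 expected counts. Its mean was 2.46 ± 0.205 TPM (SD, n = 2), at percentile 20.2 of the expressed genes. All of its counts went to the transcript Tgfb1-201.

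Tgfb2 (ENSMUSG00000039239.10, GRCm38 chr1:186622792-186705989, minus strand), whose loss in mice causes heart malformations, was at 3.85 and 4.73 TPM, from 1960 and 1776 counts (mean 4.29 ± 0.622 TPM, SD, n = 2). Its count was thus higher in replicate 1 and its TPM higher in replicate 2. In replicate 2, 105.53 of the counts were assigned to Tgfb2-205, a retained-intron transcript of 898 nucleotides that had none in replicate 1. Because that transcript is short it made up 33.05% of the gene's TPM in replicate 2 but 5.94% of its counts. Over protein-coding transcripts alone Tgfb2 stood at 3.85 and 3.16 TPM, and the log2 ratio of replicate 1 over replicate 2 changed sign, to 0.28 over coding transcripts against -0.29 over all of the gene's transcripts.

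Tgfb3 (ENSMUSG00000021253.6, GRCm38 chr12:86056745-86079041, minus strand), known in mice for its part in palate fusion and also made in the heart, has 1 quantified transcript. It was at 5.70 and 3.74 TPM, from 1863 and 1282 counts (mean 4.72 ± 1.39 TPM, SD, n = 2). The deposited TPM interval ran from 5.40 to 5.91 in replicate 1 and from 3.50 to 3.91 in replicate 2. These intervals did not overlap, as was true for 73.3% of expressed genes.

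Tgfb1 held 21.5% of ligand TPM in each replicate. Tgfb2 held 31.7% and 43.8%, and Tgfb3 held 46.9% and 34.7%. Tgfb1 was therefore below both other ligands in each library, while the order of Tgfb3 and Tgfb2 turned round: their log2 ratio, Tgfb3 over Tgfb2, was 0.55 in replicate 1 and -0.33 in replicate 2. Over protein-coding transcripts Tgfb3 was the higher in both, with log2 ratios of 0.55 and 0.24. None of the 3 ligand pairs differed by more than the replicate limit used here, a log2 difference of 2.15 (4.44-fold), which is the 95th percentile of the absolute replicate differences of expressed genes.

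Among the receptors, Tgfbr2 (ENSMUSG00000032440.8, GRCm38 chr9:116084293-116175360, minus strand), the type II receptor that binds the ligand first, was highest, at 19.63 and 17.77 TPM from 9220 and 8734 counts (mean 18.7 ± 1.32 TPM, SD, n = 2; percentile 80.1). Tgfbr1 (ENSMUSG00000007613.11, GRCm38 chr4:47353222-47414931, plus strand), the type I receptor kinase also called ALK5, was lowest, at 5.69 and 5.23 TPM from 3011 and 2978 counts (mean 5.46 ± 0.325 TPM, SD, n = 2). Type II receptor transcript thus exceeded type I receptor transcript 3.41-fold and 3.35-fold, a ratio that hardly moved between the replicates. It did not pass the limit of 2.15 (log2 ratios 1.77 and 1.75), but passed the limit of 1.29 that the same rule gives for genes averaging at least 10 TPM.

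Both of these receptors exist in forms that differ by a short stretch of coding sequence, shown here because the files give each form its own level. For Tgfbr2 the capitals mark an extra exon of 75 bases (GRCm38 chr9:116158271-116158345, minus strand), and for Tgfbr1 they mark 12 optional bases at the start of an exon (GRCm38 chr4:47393247-47393258, plus strand). The lower-case letters are the 15 bases on either side in the spliced transcript, written 5′ to 3′ from the GENCODE M21 transcripts.
Tgfbr2 extra exon: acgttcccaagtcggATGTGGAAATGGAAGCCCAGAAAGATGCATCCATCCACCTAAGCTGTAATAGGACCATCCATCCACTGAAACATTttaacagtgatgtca
Tgfbr1 optional bases: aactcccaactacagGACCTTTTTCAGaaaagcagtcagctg
Both stretches are multiples of 3 in length. The annotated coding lengths are 1776 and 1701 bases for Tgfbr2 with and without its exon, and 1509 and 1497 bases for Tgfbr1-201, which has the 12 bases, and Tgfbr1-202, which lacks them.

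The longer Tgfbr2 form, known as the type II-B receptor, was the minor form in both libraries but differed between them. Tgfbr2-202, with the exon, was at 7.10 TPM in replicate 1 and 3.78 TPM in replicate 2 (3371.77 and 1881.47 counts), which was 36.2% and 21.3% of the gene's TPM. Tgfbr2-201, without it, was at 12.53 and 13.99 TPM (5848.23 and 6852.53 counts). The form with the exon was thus 1.88-fold higher in replicate 1 while the form without it was slightly lower there, and the gene's total differed 1.10-fold. The deposited intervals of Tgfbr2-202 did not overlap (6.58 to 7.50 and 3.33 to 4.27 TPM), as was true for 79.3% of the 19236 transcripts averaging at least 1 TPM. The share of the leading transcript moved by 14.9 percentage points, close to the median of 15.1 points over the 8394 expressed genes with at least 2 transcripts. In the deposited tables the transcripts are 4785 and 4710 nucleotides long, a difference equal to the exon. In GENCODE M21 their lengths differ from these and their ends differ too.

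For Tgfbr1 the forms with the 12 bases were the major ones, with 88.6% and 91.6% of the gene's TPM. The forms with them summed to 5.03 and 4.79 TPM, from 2902.5 and 2901.5 counts. The forms without them, Tgfbr1-202 and Tgfbr1-205, summed to 0.65 and 0.44 TPM from 108.5 and 76.5 counts. That was 11.4% and 8.41% of the gene's TPM and 3.60% and 2.57% of its counts. Nearly all of it was Tgfbr1-205 (0.64 and 0.42 TPM), which also starts and ends elsewhere and has 1302 annotated coding bases. Tgfbr1-202 was at 0.01 and 0.02 TPM, from 3.99 and 5.23 counts. These shares therefore do not measure use of the 12 bases alone. The major form was the same in both libraries.

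Tgfbr3 (ENSMUSG00000029287.10, GRCm38 chr5:107106570-107289629, minus strand) encodes betaglycan, a co-receptor without kinase activity that presents Tgfb2 in particular to the type II receptor and is needed for coronary vessel formation in mice. At the gene level it was nearly equal in the libraries, 15.59 and 16.10 TPM (mean 15.8 ± 0.361 TPM, SD, n = 2), although its counts were 5711 and 7438. A large part of that TPM came from Tgfbr3-204, a retained-intron transcript, which was at 7.53 and 5.54 TPM and made up 48.3% and 34.4% of the gene's TPM but 15.0% and 8.90% of its counts. The leading coding transcript Tgfbr3-201 was at 7.91 and 10.54 TPM. Over coding transcripts Tgfbr3 exceeded Tgfbr1 by log2 ratios of 0.49 and 1.00, against 1.44 and 1.60 over all transcripts. Total RNA libraries hold unspliced and intron-containing RNA, and what part of these values comes from it was not tested.

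The latent binding proteins spanned the widest range of levels. Ltbp4 (ENSMUSG00000040488.12, GRCm38 chr7:27305136-27337692, minus strand), which binds elastic fibre components and, weakly, latent TGF-beta, was the highest of all 10 genes, at 38.99 and 39.99 TPM from 17466 and 17678 counts (mean 39.5 ± 0.707 TPM, SD, n = 2; percentile 90.8). It held 60.5% and 66.5% of the summed TPM of this group. Ltbp1 (ENSMUSG00000001870.11, GRCm38 chr17:75005568-75392512, plus strand), which carries the latent forms of all 3 ligands into the matrix, was at 16.89 and 11.37 TPM (mean 14.1 ± 3.90 TPM, SD, n = 2). Its counts, 7351 and 7195, were nearly equal.

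Ltbp3 (ENSMUSG00000024940.10, GRCm38 chr19:5740904-5758532, plus strand), another carrier of latent ligand, was at 6.50 and 6.66 TPM from 3365 and 3615 counts (mean 6.58 ± 0.113 TPM, SD, n = 2). Ltbp2 (ENSMUSG00000002020.11, GRCm38 chr12:84783212-84876532, minus strand), the member of the family that does not bind latent TGF-beta, was the lowest of the 10 genes at 2.02 and 2.12 TPM from 1385 and 1279 counts (mean 2.07 ± 0.0707 TPM, SD, n = 2). Both genes were close to equal in the libraries. In Ltbp2, the 547-nucleotide transcript Ltbp2-205 had 0 and 10.04 counts and made up 16.54% of the gene's TPM in replicate 2. Its leading transcript Ltbp2-201 was at 2.02 and 1.77 TPM. The carriers Ltbp1 and Ltbp3 together held 1.92 and 1.67 transcripts per ligand transcript. This ratio counts all transcripts, also those not annotated as protein-coding. Over protein-coding transcripts Ltbp1 was at 11.14 and 10.74 TPM and Ltbp3 at 6.50 and 6.66 TPM. The ligands then summed to 12.16 and 9.22 TPM, so the ratio was higher in replicate 2 and its direction turned round.

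Of 12 pairs of genes with the same role, 3 differed in both replicates by more than the limit of 2.15, and all 3 were pairs of latent binding proteins. Ltbp4 exceeded Ltbp2 18.4-fold and 18.1-fold, Ltbp4 exceeded Ltbp3 5.92-fold and 5.93-fold, and Ltbp1 exceeded Ltbp2 8.01-fold and 5.17-fold. With the lower limit of 1.29 set by genes averaging at least 10 TPM, 6 pairs passed, Tgfbr2 over Tgfbr1, Tgfbr3 over Tgfbr1 and Ltbp3 over Ltbp2 being the others. Each of these 3 includes a gene below the 10 TPM at which that limit was set, and over coding transcripts Tgfbr3 over Tgfbr1 (0.49 and 1.00) did not pass it. Of the 12 pairs, 11 kept their order in both replicates, the exception being Tgfb3 and Tgfb2.

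By mean level the order of all 10 genes was Ltbp4, Tgfbr2, Tgfbr3, Ltbp1, Ltbp3, Tgfbr1, Tgfb3, Tgfb2, Tgfb1 and Ltbp2. None of the 9 neighbouring pairs in this order differed by more than the limit of 2.15. The replicate ranges overlapped for Tgfbr3 and Ltbp1, for Tgfbr1 and Tgfb3, and for Tgfb3 and Tgfb2, and did not overlap for the other 6 neighbours. Over coding transcripts Ltbp1 (mean 10.9 TPM) stood above Tgfbr3 (9.29 TPM) in both replicates, so that their order turned round.

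Ltbp1 and Ltbp4 are each transcribed from separate first exons into a long and a short form, and the start in main use differed between the genes. The long form of Ltbp1 starts 173 kb upstream of the short form, and was at 8.86 and 8.55 TPM (5970.37 and 6042.07 counts). The short form was at 2.28 and 2.19 TPM (1068.96 and 1111.06 counts). The long form thus held 79.5% and 79.6% of the TPM of both forms and exceeded the short form 3.89-fold and 3.90-fold.

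In Ltbp4, whose starts lie 4.03 kb apart, the short form dominated. It was at 32.42 and 32.11 TPM (16504.95 and 17170.22 counts), against 1.53 and 0.52 TPM for the long form (822.11 and 294.41 counts). The short form held 95.5% and 98.4% of the TPM of both forms and exceeded the long form 21.2-fold and 61.8-fold. The main form was the same in both replicates for each gene, and of these 4 forms the long form of Ltbp4 was the farthest apart between them.

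The bases before these starts are shown because the long and short forms differ in where transcription begins. They are the bases before each start from RefSeq on GRCm38.p6, ending upstream of the outermost annotated start, written 5′ to 3′ on the gene's strand. The windows are chr17:75005279-75005528 and chr17:75178531-75178780 (plus strand) for the long and short starts of Ltbp1, and chr7:27337693-27337862 and chr7:27333664-27333913 (minus strand) for those of Ltbp4. Capitals mark GGGCGG on either strand (CCGCCC on the other), a box bound by Sp1-type factors, and TGACGTCA, the cyclic AMP response element.
Ltbp1 long form start: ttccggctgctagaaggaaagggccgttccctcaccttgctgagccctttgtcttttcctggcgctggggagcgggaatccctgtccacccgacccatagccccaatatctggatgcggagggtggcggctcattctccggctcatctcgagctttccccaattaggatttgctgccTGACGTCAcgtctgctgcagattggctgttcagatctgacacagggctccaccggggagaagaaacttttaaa
Ltbp1 short form start: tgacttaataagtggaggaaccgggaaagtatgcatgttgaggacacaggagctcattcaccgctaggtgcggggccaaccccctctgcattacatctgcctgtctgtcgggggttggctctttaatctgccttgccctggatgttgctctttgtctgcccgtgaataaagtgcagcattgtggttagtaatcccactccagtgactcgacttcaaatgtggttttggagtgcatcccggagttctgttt
Ltbp4 long form start: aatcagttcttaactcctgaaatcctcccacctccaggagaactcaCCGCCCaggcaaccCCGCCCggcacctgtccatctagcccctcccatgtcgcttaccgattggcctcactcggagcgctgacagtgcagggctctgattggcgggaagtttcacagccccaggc
Ltbp4 short form start: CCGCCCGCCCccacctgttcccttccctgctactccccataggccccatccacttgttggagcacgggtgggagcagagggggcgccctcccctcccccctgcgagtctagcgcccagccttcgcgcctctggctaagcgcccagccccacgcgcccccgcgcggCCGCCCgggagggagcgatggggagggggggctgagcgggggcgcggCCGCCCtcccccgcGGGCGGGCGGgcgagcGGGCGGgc
The window before the short start of Ltbp4, the start with the most transcript, had a GC content of 79.2%, 28 CpG dinucleotides and 7 matches to GGGCGG, some of them overlapping. The window before its long start, which is 170 bases long, had a GC content of 60.6% and 2 such matches. The long start of Ltbp1 had a GC content of 56.8% and 1 TGACGTCA, 73 bases before the RefSeq start, and the short start had 50.8% and no match. Across 32817 RefSeq windows of 250 bases the median GC content was 52.4%, GGGCGG occurred in 32.7% and TGACGTCA in 1.55%. The TATA box TATAAA, found in 12.4% of all windows on either strand, had no match in the 4 shown. The E-box CACGTG (6.02% of windows) had none either, nor did the Smad palindrome GTCTAGAC (0.168%). The motifs were chosen with these sequences in view, and a match is a description of letters.

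**Figure D2:**
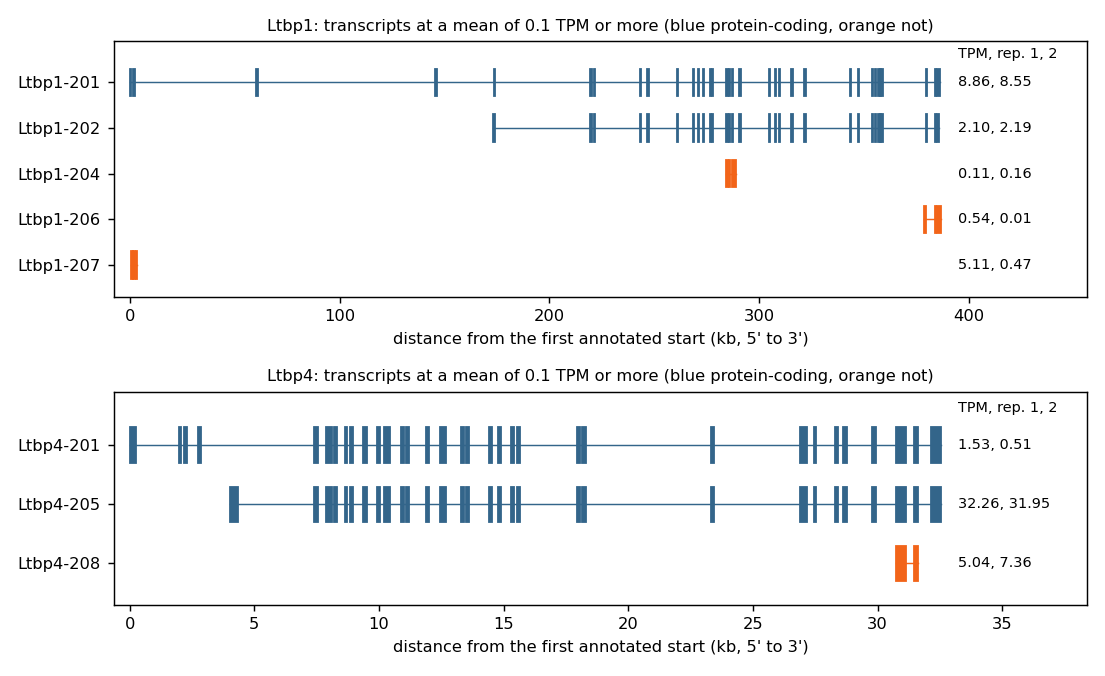
Annotated transcripts of Ltbp1 (upper panel) and Ltbp4 (lower panel) at a mean of 0.1 TPM or more, drawn to scale as exons (boxes, with a minimum width) along the distance in kb from the first annotated start, with TPM in replicates 1 and 2 at the right. The long Ltbp1-201 is at 8.86 and 8.55 TPM and the short Ltbp4-205 at 32.26 and 31.95 TPM, and short transcripts not annotated as protein-coding (orange) include Ltbp1-207 at 5.11 and 0.47 TPM.

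Short transcripts also set part of the gene-level TPM of Ltbp1 and Ltbp4. Ltbp1-207, a processed transcript of 519 nucleotides near the long start, was at 5.11 and 0.47 TPM, from 124 and 12 counts, and made up 30.2% of the gene's TPM but 1.69% of its counts in replicate 1. Over coding transcripts Ltbp1 was at 11.14 and 10.74 TPM, a log2 ratio of 0.05 for replicate 1 over replicate 2 against 0.57 over all transcripts. Ltbp4-208, a retained-intron transcript of 550 nucleotides, was at 5.04 and 7.36 TPM from 138.94 and 213.37 counts, and over coding transcripts Ltbp4 was at 33.95 and 32.63 TPM.

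Of 45 quantified transcripts of the 10 genes, 21 had counts in both replicates and 16 had none in either. For all 8 genes with at least 2 transcripts the leading transcript was the same in both replicates, which was so for 66.0% of those 8394 expressed genes. It held at least 80% of the gene's TPM in both replicates for 5 of the 10 genes, Tgfb1, Tgfb3, Tgfbr1, Ltbp2 and Ltbp3, and at least 80% of the counts for 9, the exception being Tgfbr2.

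**Figure D3:**
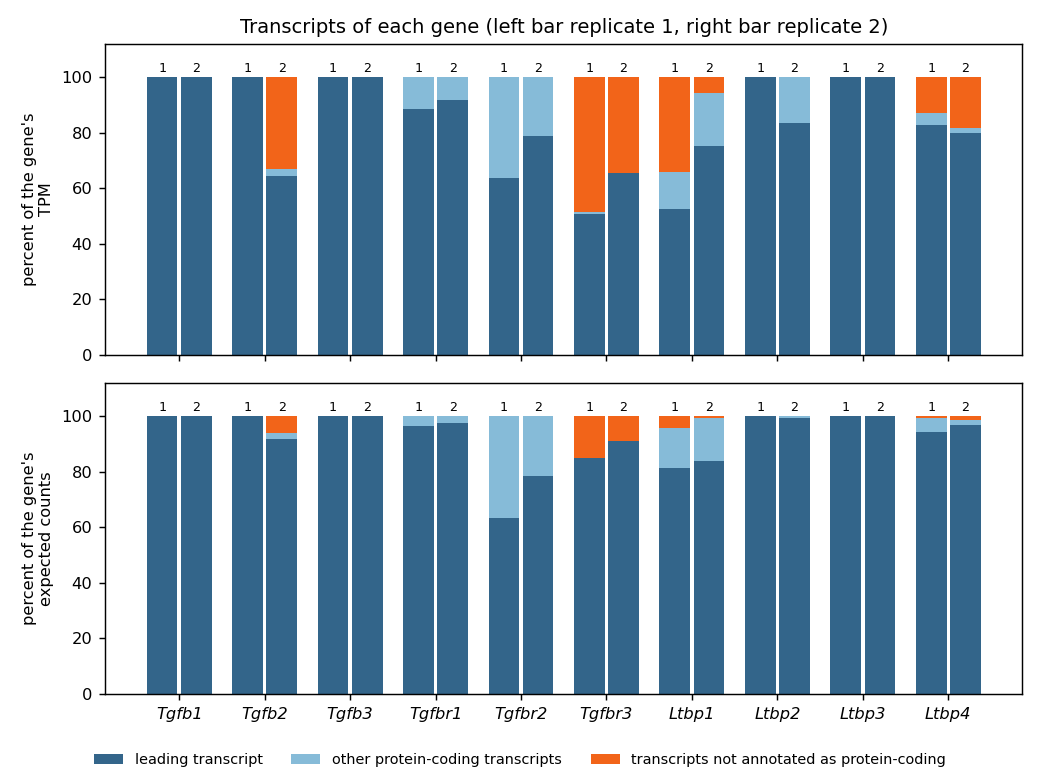
Share of each gene's TPM (upper panel, percent) and expected counts (lower panel, percent) in its leading transcript, in other protein-coding transcripts and in transcripts not annotated as protein-coding, with replicate 1 as the left bar and replicate 2 as the right bar of each pair. Transcripts not annotated as protein-coding take up to 48.3% of TPM (Tgfbr3, replicate 1) but at most 15.0% of counts.

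Differences between the replicates were taken as log2 ratios of TPM plus 0.1, replicate 1 over replicate 2, centred on the median of all expressed genes. None of the 10 genes was 2-fold apart, where 19.0% of expressed genes were (8.90% higher and 10.1% lower in replicate 1). Tgfb3 (0.62) and Ltbp1 (0.59) were more than 1.5-fold apart, as were 36.3% of expressed genes. The median absolute difference was 0.15 for the 10 genes and 0.40 for expressed genes. In sign, 5 genes were higher and 5 lower in replicate 1. The deposited TPM intervals did not overlap for Tgfb3, Tgfbr2 and Ltbp1, 3 of the 10 genes, and for 73.3% of expressed genes. The difference of Tgfb3 was as large in counts (log2 ratio 0.61 of counts scaled to library size, CPM), while that of Ltbp1 was 0.10 in CPM.

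**Figure D4:**
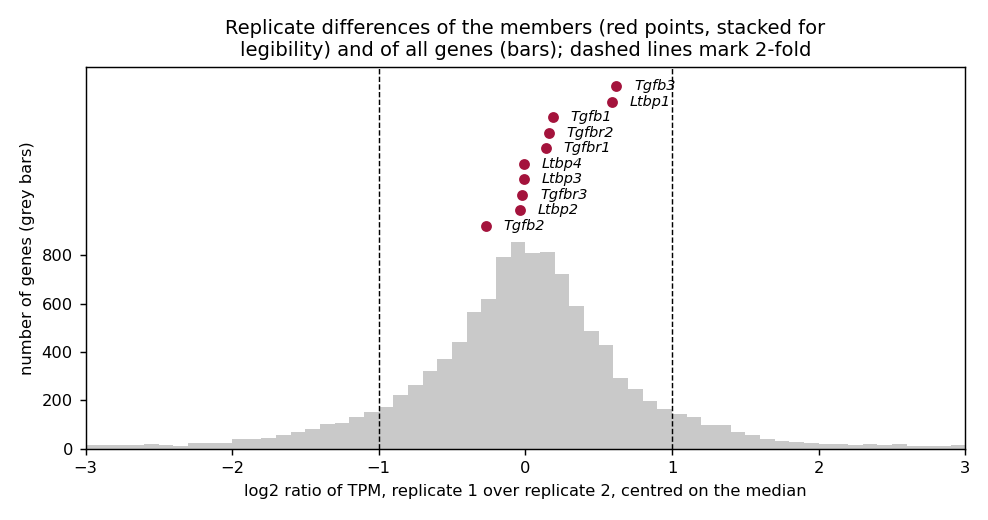
Log2 ratio of TPM, replicate 1 over replicate 2, centred on the median: bars count the expressed genes and points mark the 10 genes, with dashed lines at 2-fold. All 10 points lie between the dashed lines, from -0.27 for Tgfb2 to 0.62 for Tgfb3.

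Defining cardiomyocyte genes were abundant in both libraries (6 of 6 at 1 TPM or more, summed TPM 11557.61 and 11795.28), as were fibroblast (6 of 6, 263.1 and 316.86) and endothelial genes (6 of 6, 145.8 and 136.19). None of the cardiomyocyte and endothelial genes was 2-fold apart, while 1 fibroblast gene, Pdgfra, was (3.03 and 6.47 TPM) and 5 of the 6 were lower in replicate 1. Of 6 smooth muscle genes, 4 were at least 2-fold lower in replicate 1, against 10.1% of expressed genes (summed TPM 326.7 and 664.84), and 5 urothelial genes summed to 0.4 and 62.71 TPM. All 4 pericyte genes were lower in replicate 1 (49.59 and 75.67 TPM summed), of which Kcnj8 was 2-fold apart. The 5 platelet genes summed to 14.88 and 30.69 TPM, with Pf4 2-fold lower in replicate 1. Among the 6 epicardial and 6 macrophage genes, 1 each was 2-fold apart, Wt1 lower and Cd68 higher in replicate 1. Summed levels were higher in replicate 1 for lists of 8 lymphocyte and thymus genes (4.49 and 0.01 TPM), 5 lung epithelial genes (4.61 and 0.22 TPM) and 6 skeletal muscle genes (8.63 and 0.22 TPM), of which 3, 1 and 4 were at 0 in both replicates. What part these had in the differences of Tgfb3, the Tgfbr2 forms and the long Ltbp4 form was not tested.

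Some of the 10 genes share sequence with genes on the other strand, and whether the authors' quantification used strand is not given in the sources used here. Exons of Ltbp2 overlap the antisense gene D030025P21Rik by 764 nucleotides, with 13 and 0 counts. The antisense gene Gm29491, which overlaps Tgfb2 by 124 nucleotides, and Gm37804, which overlaps Tgfb3 by 163, had 0 counts in both.

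The machinery around these genes was followed through 68 genes in 6 lists, of which 67 were matched and 60 were at 1 TPM or more in both replicates. Of those 60, 3 were 2-fold apart, Itgav, Itgb3 and Tagln, all lower in replicate 1, against 19.0% of expressed genes apart and 10.1% lower. Of 17 genes of latency and activation, 14 were detected. The highest were Tgm2, a transglutaminase that cross-links latent binding proteins to the matrix (162.07 and 117.75 TPM), and the integrin subunits Itgb1 (82.64 and 63.38 TPM) and Itgb5 (37.21 and 26.10 TPM). The gelatinase Mmp2 was at 23.22 and 30.31 TPM. Mmp9, below 1 TPM in both libraries, was at 0.56 and 0.02 TPM (170 and 5 counts), more than 2-fold higher in replicate 1.

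Integrins made with the alpha-v subunit are the best known activators of latent TGF-beta. The alpha-v gene Itgav was at 6.03 and 17.54 TPM from 3993 and 5659 counts, and Itgb3 at 1.35 and 4.34 TPM from 785 and 2496 counts. The difference of Itgav was smaller in CPM (log2 ratio -0.43, against -1.50 in centred TPM), and that of Itgb3 was the same (-1.59 in each). Itgb8, a partner that activates latent TGF-beta in many cell types, was at 1.24 and 1.57 TPM, and Itgb6, its epithelial counterpart, at 0.45 and 0.65 TPM. Furin, the protease that cuts the ligand precursors, was at 20.58 and 17.87 TPM, and Thbs1, encoding the activator thrombospondin 1, at 17.74 and 16.53 TPM. Lrrc32 and Nrros, which hold latent ligand at the cell surface in place of a latent binding protein, were at 3.03 and 2.76 TPM and at 4.31 and 3.53 TPM.

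The matrix partners of the latent binding proteins were well represented, with 12 of 13 genes of microfibrils and elastic fibres detected and none 2-fold apart (median centred log2 difference 0.01, against 0 over expressed genes). Elastin (Eln) was at 97.52 and 70.55 TPM, fibronectin (Fn1) at 64.83 and 61.95 TPM, fibrillin 1 (Fbn1), which anchors latent binding proteins, at 26.52 and 33.77 TPM, and Fbln1 at 21.16 and 22.72 TPM. All 4 proteoglycans that bind the ligands were detected. Decorin (Dcn) was at 61.83 and 81.56 TPM, biglycan (Bgn) at 51.75 and 80.39 TPM, Aspn at 11.58 and 17.33 TPM and Fmod at 3.25 and 2.97 TPM, with 3 of the 4 lower in replicate 1 (median -0.47). Dcn stands also in the fibroblast list, and the part of that in its difference was not tested.

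Of 6 co-receptors and decoys, 5 were matched and all 5 were detected (median 0.27). Endoglin (Eng), the endothelial co-receptor, was at 38.63 and 32.59 TPM, above betaglycan in both libraries. Vasn, which binds the ligands, was at 16.88 and 10.23 TPM, the endothelial type I receptor Acvrl1 at 4.88 and 9.58 TPM and the kinase-less decoy Bambi at 5.14 and 4.15 TPM. Acvrl1 had 1546 and 2086 counts, and its difference was smaller in CPM (log2 ratio -0.36, against -0.94 in centred TPM). All 14 Smad genes and regulators were detected and none was 2-fold apart (median -0.04). The shared Smad4 was at 23.04 and 26.82 TPM, the inhibitory Smad6 at 24.24 and 18.08 TPM, the Smad phosphatase Ppm1a at 15.50 and 17.79 TPM and the repressor Ski at 15.78 and 14.08 TPM.

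Of 14 genes known to respond to TGF-beta, 11 were detected (median -0.31, with 4 higher and 7 lower in replicate 1). Smooth muscle actin (Acta2) was at 280.03 and 395.10 TPM, the collagen Col3a1 at 153.43 and 211.48 TPM, periostin (Postn) at 113.46 and 115.19 TPM and Col1a2 at 94.07 and 118.49 TPM. Tagln, a smooth muscle gene, was at 16.83 and 160.35 TPM, the only gene of this list 2-fold apart among those averaging at least 1 TPM. Below that average, Snai2 (1.34 and 0.48 TPM) and Snai1 (0.41 and 0.00 TPM) were also higher in replicate 1 by more than 2-fold on the log2 scale with a pseudocount of 0.1. Tagln and Acta2 stand also in the smooth muscle list, whose summed level was lower in replicate 1. Postn and Col1a1 stand also in the fibroblast list, where 5 of the 6 genes were lower in replicate 1. What part these overlaps had in the differences of the response genes was not tested.

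**Figure D5:**
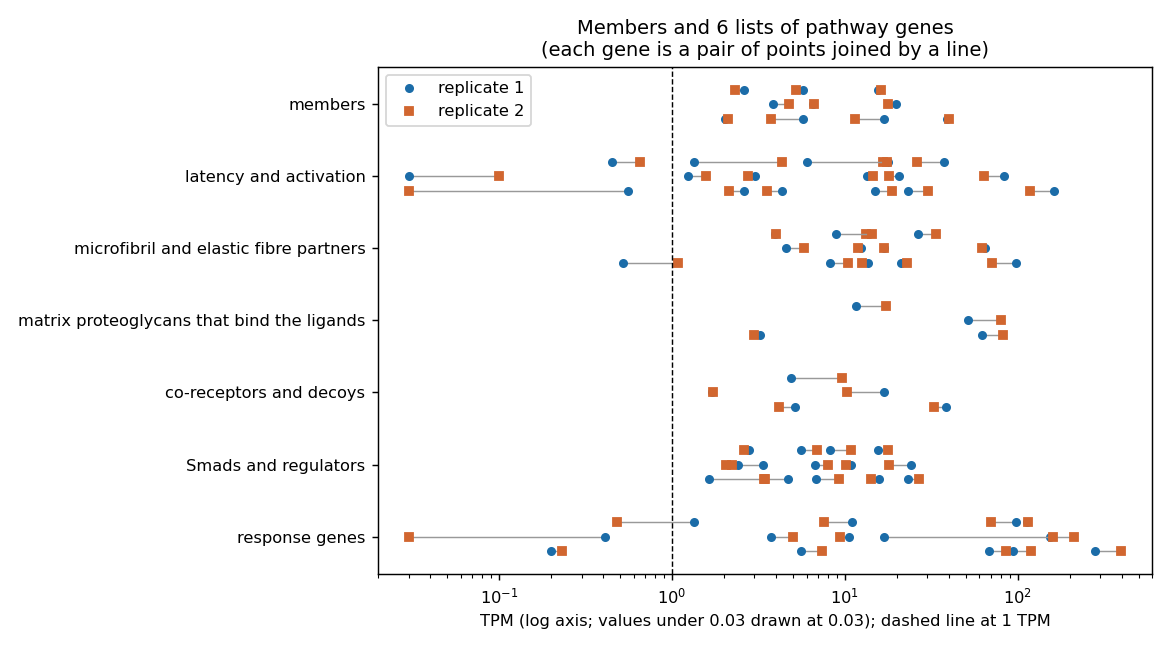
TPM (log axis) of the 10 genes and of the matched genes of the 6 lists, each gene a circle for replicate 1 and a square for replicate 2 joined by a line, with the dashed line at 1 TPM. The 10 genes lie between 2.02 and 39.99 TPM, and the widest gap among genes at 1 TPM or more in both libraries is Tagln at 16.83 and 160.35 TPM.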

How the data were processed

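Total RNA above 200 nucleotides from 2 newborn heart pools was sequenced from both ends to 101 nucleotides in strand-keeping libraries with ERCC spike-in RNAs, per the labels. The authors deposited a gene and a transcript table per replicate on mm10 with GENCODE M4, per the notes deposited with the files, while the aligner is not given in the sources used here. Deposited expected counts are estimated fragments per gene or transcript, with no scaling from library to library. Deposited TPM values divide them by effective length and scale to a fixed total, and the deposited FPKM values are scaled by length and library. The transcript share is the percent of a gene's TPM, per the file headers. Only 26.3% and 26.5% of TPM lay in nuclear protein-coding genes. The deposited interval bounds are signal values on the TPM scale made by the authors at a level not stated, and they cover the estimate within a library and not the spread between replicates.

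Names and coordinates came from GENCODE M21 (GRCm38), matched by identifier for 42462 genes, and 884 were not matched. For 41 of 45 transcripts the deposited and M21 lengths were equal. Promoter windows came from RefSeq (GRCm38.p6). For 2 genes, Tgfb3 and Tgfbr3, the table gave none. Of the listed genes Cripto was not matched and was not analysed here.

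Differences, limits and lists used deposited TPM with a pseudocount of 0.1. The rule for calling 2-fold differences was checked on simulated counts with known changes. Those counts held sampling noise only, so the check does not cover spread between animals or the assignment of counts to transcripts. With 1 group of 2 samples there is no test and no p-value. Named genes were the 10 members, the 4 highest of each pathway list and every pathway list gene 2-fold apart at a mean of 1 TPM or more. Mmp9, Snai1 and Snai2, which averaged less, and some genes of the cell type lists were named outside this rule. Furin, Thbs1, Lrrc32, Nrros, Itgb6 and Itgb8 were added after their values were seen. The members and lists were chosen with earlier results of these data known. TMM factors (edgeR 4.0.16) and size factors (DESeq2 1.42.0) in R 4.3.3 were computed on expected counts rounded to whole numbers and served as alternatives. Other alternatives covered thresholds, pseudocounts, filters, units and single replicates. Python 3.11.15 with pandas 2.3.3, numpy 2.4.6 and matplotlib 3.10.9 did the rest.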

Additional observations from a re-analysis of the deposited data

How the results depend on the processing

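At a threshold of 5 TPM, 6 of the 10 genes were detected in both replicates, against 10 at 1 TPM and under the other alternatives. At 1.5-fold, 2 genes were apart, Tgfb3 and Ltbp1, against 0 at 2-fold under every scaling, pseudocount, filter and unit tried. The 3 pairs of genes with the same role past the replicate limit became 6 with the limit from genes averaging at least 10 TPM, 1 (Ltbp4 over Ltbp2) with the limit from all genes with a count, and 0 at the 99th percentile. They became 4 with a pseudocount of 1, where Tgfbr2 over Tgfbr1 also passed, and 4 in CPM, where Tgfb2 over Tgfb1 also passed. Neighbouring pairs past the limit were 1 in place of 0 in CPM, which is not divided by length (Tgfb2 over Tgfb1). Without replicate 1 or without replicate 2 the counts were 10 to 10 genes detected, 61 to 61 list genes (60 with both), 3 to 3 pairs and 0 to 0 neighbours. Whether the leading transcripts match cannot be computed from 1 replicate. Rescaling TPM over nuclear protein-coding genes multiplied levels by 3.80 and 3.77 and moved all 10 beyond their spread. TPM summed over protein-coding transcripts, an alternative chosen after seeing the data, moved Tgfb2, Tgfbr3 and Ltbp4, and the posterior mean moved Ltbp2. No paired analysis was possible because there is 1 group. With 2 libraries each SD rests on 2 values. The 10 genes had 485 to 17678 counts per library, while some short transcripts that set gene-level TPM had few, such as Ltbp1-207 (124 and 12).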
